A study of Homo sapiens with 8 samples.

Results

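The genes described here are the ligands, receptors, SMAD proteins, ID factors, secreted antagonists and latency binding proteins of the TGF-beta and BMP pathway, measured in BT474. This is an established line of human breast cancer cells, of luminal type with amplified ERBB2. The genes were chosen by a rule on gene symbols, which 64 of the 26475 rows of the count table met. RNA sequencing covered 8 libraries, 4 from cells labelled NPY1R high and 4 from cells labelled NPY1R low, where NPY1R encodes the neuropeptide Y receptor Y1. Both groups are the same cell line and the labels name no other allele, agent or time. The labels do not say how high and low cells were obtained, or whether replicates were separate cultures, so p-values measure only the spread between these libraries. The series belongs to a study of cells that persist through lapatinib, an inhibitor of EGFR and ERBB2, and the comparison asks how cells with high and low NPY1R differ.

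TGF-beta family ligands are secreted dimers that bring together a type II and a type I receptor kinase on the cell surface. The type I receptor then phosphorylates receptor SMADs, which join SMAD4 and move to the nucleus. TGF-beta and activin signal mainly through SMAD2 and SMAD3, and BMPs through SMAD1, SMAD5 and SMAD9. The ID genes and the inhibitory SMADs SMAD6 and SMAD7 are among the best known direct targets of this signalling, and in the mammary epithelium TGF-beta restrains growth of normal cells.

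Among the 40 members with enough counts to test, 5 were called, a share of 12.5% that is near the 13.6% of all tested genes. The ligands BMP7, TGFB3 and GDF15, the receptor TGFBR1 and the pseudoreceptor BAMBI were these 5, lower in NPY1R high cells, with BMP7 at 181 ± 20.2 CPM against 442 ± 58.3 CPM in NPY1R low (SD, n = 4 each; CPM are TMM-scaled counts relative to library size). The BMP response genes ID1, ID3 and ID4 had higher means in NPY1R high, but their levels also differed several-fold between replicates 1 and 2 and replicates 3 and 4 of both groups. No member was called higher by edgeR with TMM scaling, the filter on low counts and no further term, while ID4, SMAD1 and SMAD7 were under 4 other scalings and DESeq2 called these and SMAD9. The other receptors and the SMADs that carry the signal were mostly at near-equal levels in both labelled groups.

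Total counts ranged from 18025648 to 30609791 per library. NPY1R checked the labels, with 699, 728, 1049 and 950.2 CPM in NPY1R high replicates 1 to 4 and 90.8, 94.9, 92.8 and 104 CPM in NPY1R low. All 9 luminal epithelial markers listed (among them KRT8, KRT18, EPCAM, GATA3 and ERBB2) were above 1 CPM on average, and their sum was 7450 to 8540 CPM in NPY1R high and 7350 to 9580 CPM in NPY1R low. Of 7 fibroblast markers, COL1A2, DCN, PDGFRB and THY1 had no count in any library. Summed fibroblast markers were 10.9 to 17.5 CPM in NPY1R high and 10.4 to 17.5 CPM in NPY1R low, and COL1A1 was the only one of them above 1 CPM on average. Endothelial markers summed to 9.22 to 15.6 CPM in NPY1R high and 13.5 to 18.2 CPM in NPY1R low. For basal markers the sums were 5.05 to 8.98 and 4.8 to 7.78 CPM, and for blood markers 1.05 to 1.31 and 1.24 to 2.21 CPM. In each of these lists 1 gene was above 1 CPM on average.

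The sequences just before the RefSeq starts of ID1, ID2, ID3, ID4, SMAD6 and BAMBI are shown because part of the results describes BMP response genes, which SMAD proteins are known to bind. Of the genes shown, only BAMBI was called by edgeR with TMM scaling, the filter on low counts and no further term. ID4 was called higher by edgeR under the other scalings. Each sequence is the 250 bases before the start in RefSeq on GRCh38.p14, 5′ to 3′ on the gene's own strand. ID1 is chr20:31605039-31605288 (plus strand), ID2 is chr2:8681806-8682055 (plus), ID3 is chr1:23559502-23559751 (minus), ID4 is chr6:19837120-19837369 (plus), SMAD6 is chr15:66701986-66702235 (plus) and BAMBI is chr10:28677271-28677520 (plus). Capitals mark GTCT, the SMAD box (AGAC where it lies on the other strand), GTCTAGAC, the palindrome made of 2 such boxes, and GGCGCC, a GC-rich element known from BMP targets. A match of letters is a description and not a measured binding site.
ID1: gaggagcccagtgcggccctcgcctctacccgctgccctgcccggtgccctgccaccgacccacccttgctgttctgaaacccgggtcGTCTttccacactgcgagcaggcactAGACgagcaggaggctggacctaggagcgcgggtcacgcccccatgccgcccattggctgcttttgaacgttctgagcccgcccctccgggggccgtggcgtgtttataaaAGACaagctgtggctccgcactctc
ID2: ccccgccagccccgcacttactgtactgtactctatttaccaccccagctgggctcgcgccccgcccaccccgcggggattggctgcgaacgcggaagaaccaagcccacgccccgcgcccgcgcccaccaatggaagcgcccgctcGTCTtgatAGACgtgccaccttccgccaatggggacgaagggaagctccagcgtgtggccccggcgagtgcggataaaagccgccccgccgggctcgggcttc
ID3: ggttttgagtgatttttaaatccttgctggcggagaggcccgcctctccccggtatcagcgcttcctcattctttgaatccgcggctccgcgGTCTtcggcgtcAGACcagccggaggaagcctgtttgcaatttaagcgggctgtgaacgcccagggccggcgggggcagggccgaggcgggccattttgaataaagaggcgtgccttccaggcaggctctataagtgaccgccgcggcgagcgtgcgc
ID4: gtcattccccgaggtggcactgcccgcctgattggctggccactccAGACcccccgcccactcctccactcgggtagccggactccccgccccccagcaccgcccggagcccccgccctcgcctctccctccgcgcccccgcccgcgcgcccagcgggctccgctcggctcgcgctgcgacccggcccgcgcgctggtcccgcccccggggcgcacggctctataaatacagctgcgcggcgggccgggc
SMAD6: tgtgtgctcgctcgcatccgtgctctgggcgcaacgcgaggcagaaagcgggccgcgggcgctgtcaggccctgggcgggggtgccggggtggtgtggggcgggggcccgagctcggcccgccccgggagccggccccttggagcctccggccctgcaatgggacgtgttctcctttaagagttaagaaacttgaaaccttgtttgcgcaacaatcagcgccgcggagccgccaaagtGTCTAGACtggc
BAMBI: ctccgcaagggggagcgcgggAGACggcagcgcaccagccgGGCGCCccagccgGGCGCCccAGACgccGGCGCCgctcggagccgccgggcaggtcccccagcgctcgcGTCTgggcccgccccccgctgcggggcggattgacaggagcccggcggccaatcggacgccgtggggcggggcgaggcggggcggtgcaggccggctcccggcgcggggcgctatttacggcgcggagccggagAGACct

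SMAD6 had the palindrome GTCTAGAC with its first base 12 bases before the start, and it was the only 1 of 91 member promoters (55 of the 64 genes matched) with it. Over all 35116 RefSeq promoters, 0.182% held this palindrome in the same 250 bases. GTCT on either strand was found in 78.0% of member promoters and in 77.5% of all promoters, so it does not set members apart. ID1 had 3 such boxes, ID2 and ID3 had 2 each and ID4 had 1. The GC-rich GGCGCC lay 3 times before BAMBI and in none of the ID1, ID2, ID3, ID4 and SMAD6 windows. It was present in 24.2% of member promoters against 16.4% of all. Some genes count with more than 1 promoter, and the 22 member promoters with GGCGCC came from 19 genes. This difference was not tested, and promoters were not matched for GC content. Elements farther upstream than 250 bases were not searched, so these genes may still have one there. The palindromic estrogen response element, searched by its full consensus, was in none of the member windows and in 0.0399% of all. With a match this rare, its absence from 91 member promoters does not set members apart. BMP7 had no entry in the promoter table.

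Of the 40 tested members, 5 passed the threshold of the quasi-likelihood test of edgeR (adjusted p of 0.05), each of them lower in NPY1R high. That is 12.5% of the tested members, where 13.6% of all 14008 tested genes were called (5.78% higher and 7.81% lower), so the share is near the background. The median log2 change was -0.004 over the tested members and -0.029 over all tested genes, with 20 members above 0 and 20 below. None was called higher by this edgeR fit with TMM scaling or by limma-voom (which called 5.75% of all genes higher and 7.7% lower). In this edgeR fit, 4 of 40 had an unadjusted p under 0.05 in the higher direction. That share is near the 11.1% of all tested genes that did. DESeq2 called 4 higher, and it called 15.1% of all genes (7.37% higher). The balance of calls over all genes depended on the scaling, with 42.5% of calls higher under TMM and 56.3% under upper-quartile factors. With other scalings (median of ratios, library totals, upper quartile, or TMM with another reference library) 3 members, ID4, SMAD1 and SMAD7, were called higher and the same 5 were called lower. Of all tested genes, 6.41%, 6.77%, 7.2% and 6.57% were called higher under these scalings in that order, so 3 of 40 is near the background. In these bulk samples, fewer cells that express a gene and less RNA per cell cannot be told apart.

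**Figure D1:**
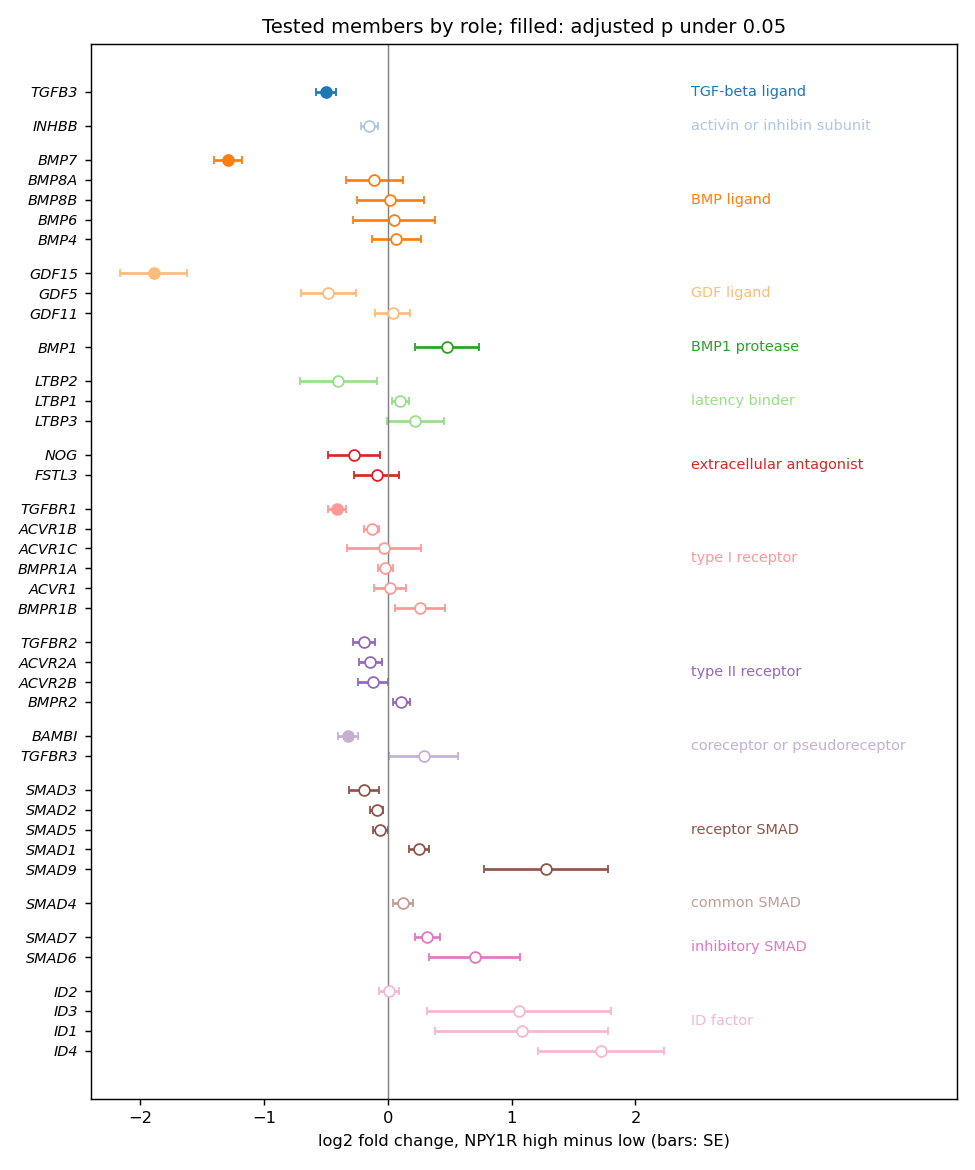
Log2 fold change of each of the 40 tested members (x axis, NPY1R high minus low, bars are the standard error) grouped by role; filled circles passed an adjusted p of 0.05. The 5 filled circles, from GDF15 at -1.89 to BAMBI at -0.32, all lie left of 0, and the widest bars belong to ID1, ID3, ID4 and SMAD9.

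Among the ligands, BMP7, a BMP that signals through BMP type I receptors and SMAD1, SMAD5 and SMAD9, was the most abundant member per transcript length (137 TPM averaged over the 8 libraries, computed here with the longest coding transcript of each gene). Its gene lies at 57168753 to 57266641 on chromosome 20 of GRCh38. BMP7 had 208, 184, 163 and 169 CPM in NPY1R high replicates 1 to 4 and 491, 488, 419.8 and 370.1 CPM in NPY1R low. All 4 high libraries lay below the lowest low library. The log2 change was -1.29 (SE 0.11), or 2.44-fold lower (edgeR adjusted p = 4.74e-05). Between replicates 1 and 2 alone the log2 difference of mean CPM was -1.32, and between replicates 3 and 4 alone it was -1.25.

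TGFB3, the TGF-beta isoform that these cells expressed, had 60.2, 58.6, 56.3 and 57.1 CPM in the NPY1R high replicates 1 to 4. In the NPY1R low replicates it had 91.6, 88.1, 74.7 and 73.2 CPM. The high libraries were close together and all below the low ones. The log2 change was -0.50 (SE 0.08; edgeR adjusted p = 0.00246). TGFB1 and TGFB2, the other two isoforms, had only 47 and 37.4 counts in total over the 8 libraries and were not tested.

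GDF15, a stress-induced cytokine that acts through the receptor GFRAL rather than through SMADs, had the largest fold among the called members and the lowest level. It had 7, 9, 13 and 10 counts in NPY1R high replicates 1 to 4 and 37, 38, 36 and 41 counts in NPY1R low. In CPM these were 0.240, 0.335, 0.470 and 0.551 against 1.24, 1.33, 1.65 and 1.61, with no overlap. The log2 change was -1.89 (SE 0.27; edgeR adjusted p = 0.00119). The counts of at most 13 per library in NPY1R high limit how well the size of this fall is known.

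**Figure D2:**
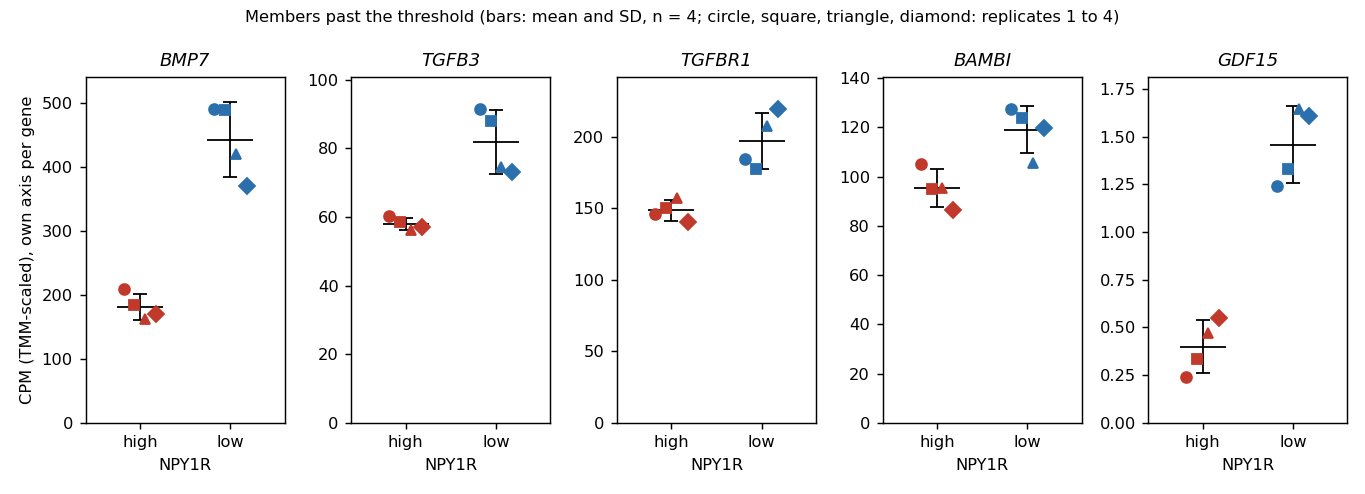
CPM of the 5 members past the threshold in each library (points; circle, square, triangle and diamond are replicates 1 to 4) with the mean and SD of each group of 4 (black), every axis starting at 0. In each panel the highest NPY1R high library lies below the lowest NPY1R low library, by the smallest margin for BAMBI (105.1 against 105.5 CPM).

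Other ligand genes differed less. INHBB, which encodes the beta B subunit of activin B and inhibin B, had 101, 95.4, 82.8 and 98.5 CPM in NPY1R high and 107, 110.4, 101 and 99.5 CPM in NPY1R low, in overlapping ranges (edgeR adjusted p = 0.211). It was the only activin or inhibin subunit tested, since INHA had 62 counts in total, INHBA 5, and INHBC and INHBE 2 each. GDF11, a relative of myostatin, had 7.77, 7.66, 10.1 and 10.1 CPM in NPY1R high and 8.54, 7.30, 9.93 and 9.01 CPM in NPY1R low, a log2 change of 0.04 (SE 0.14). GDF5, a ligand of joint development, had a log2 change of -0.48 (SE 0.22) at 1.54 ± 0.385 against 2.13 ± 0.338 CPM (SD, n = 4 each) and was not called. The log2 changes of BMP4, BMP6, BMP8A and BMP8B were 0.07, 0.05, -0.11 and 0.02, with SE of 0.20 to 0.33. BMP8A and BMP8B are near-identical copies, so the division of counts between them is uncertain.

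Most remaining ligands were at or near 0. BMP2, BMP10, BMP15, GDF2, GDF3 and GDF7 had no count in any library, which leaves room for up to 3 counts per library. BMP3 had 60 counts over the 8 libraries, BMP5 4, GDF1 16.4, GDF6 35, GDF9 68 and GDF10 4, too few to test. GDF1 shares a transcript unit with CERS1, so its counts are uncertain as well.

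Members of the symbol rule whose proteins act on ligands outside the cell did not pass the test. Some such genes outside the rule did pass and are described below, among them THBS1 and FSTL1 (higher) and ITGB6 (lower). LTBP1, which holds latent TGF-beta in the matrix, was the most abundant of its family, with 58.5, 60.7, 52.9 and 58.4 CPM in NPY1R high and 49.8, 55.1, 51.1 and 59.1 CPM in NPY1R low. Its log2 change was 0.10 (SE 0.07), that of LTBP2 -0.40 (SE 0.31) and that of LTBP3 0.22 (SE 0.23), while LTBP4 had 45 counts in all. BMP1, which despite its name is a protease that cleaves procollagen and the BMP antagonist chordin, had 6.91, 6.17, 3.04 and 4.41 CPM in NPY1R high and 4.16, 4.27, 3.61 and 2.63 CPM in NPY1R low. The groups overlapped, and its log2 change was 0.48 (SE 0.26). Among antagonists, FSTL3, which binds activins, had 4.12, 3.53, 2.93 and 3.8 CPM against 3.86, 4.73, 3.84 and 2.83 CPM, and a log2 change of -0.09 (SE 0.18). NOG, which encodes the BMP trap noggin, had a log2 change of -0.27 (SE 0.21) at under 1 CPM in both group means. The antagonists FST and GREM1 had no count, and CHRD (chordin) had 22 over all libraries.

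TGFBR1, the type I receptor for TGF-beta, was the only called receptor kinase of 10 tested. TGFBR1 had 146, 150.4, 158 and 140.1 CPM in NPY1R high replicates 1 to 4 and 185, 177, 207 and 219.8 CPM in NPY1R low, with no overlap. Its log2 change was -0.41 (SE 0.07; edgeR adjusted p = 0.00503), and within replicates 1 and 2 it was -0.29 and within replicates 3 and 4 -0.52. TGFBR2, the type II partner that binds TGF-beta first, had 14.1 ± 0.694 against 16.1 ± 1.12 CPM (SD over 4 libraries each). Its log2 change of -0.19 (SE 0.09) was not called (edgeR adjusted p = 0.193).

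Receptors of the BMP and activin branches had smaller changes. ACVR1B, an activin type I receptor, was lower in every NPY1R high library (35.1 to 37.9 CPM) than in any NPY1R low library (39.1 to 41.0 CPM), with a log2 change of -0.13 (SE 0.06) that did not pass (edgeR adjusted p = 0.207). BMPR1A, a BMP type I receptor gene, had a log2 change of -0.02 (SE 0.06), whose sign turned under other scalings. ACVR1, ACVR1C and BMPR1B had 0.02 (SE 0.13), -0.03 (SE 0.30) and 0.26 (SE 0.20). ACVRL1, a receptor of endothelial cells, had no count. BMPR2, the BMP type II receptor and the most abundant type II gene per length, had 105, 110.4, 96.4 and 110.7 CPM in NPY1R high and 88.9, 94.0, 108 and 99.9 CPM in NPY1R low, a log2 change of 0.11 (SE 0.07). The activin type II receptors ACVR2A and ACVR2B had -0.14 (SE 0.09) and -0.12 (SE 0.12).

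BAMBI encodes a receptor-like protein without a kinase that dampens TGF-beta and BMP signalling. BAMBI had 105.1, 94.8, 95.3 and 86.3 CPM in NPY1R high replicates 1 to 4 and 128, 124, 105.5 and 119.6 CPM in NPY1R low. The groups did not overlap, though NPY1R high replicate 1 and NPY1R low replicate 3 nearly met. The log2 change of BAMBI was -0.32 (SE 0.08; edgeR adjusted p = 0.0207). This call ended when NPY1R high replicate 2, 3 or 4 or NPY1R low replicate 1 or 2 was left out, with edgeR adjusted p-values up to 0.0883. TGFBR3, the coreceptor betaglycan, was below 1 CPM in every library and had a log2 change of 0.29 (SE 0.28). In all, 8 of the 40 tested members had groups that did not overlap, where 20.2% of all tested genes did (8.77% with high above low and 11.4% below).

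The SMADs that carry the signal were expressed in all libraries. SMAD5, the most abundant receptor SMAD per length (53.9 TPM), had 211, 208, 210.3 and 205 CPM in NPY1R high and 201, 201.3, 231 and 234 CPM in NPY1R low, a log2 change of -0.06 (SE 0.06). SMAD4, the shared partner, had 159, 161, 171 and 167 CPM in NPY1R high and 134, 141, 158 and 171 CPM in NPY1R low, a log2 change of 0.12 (SE 0.08). By CPM, SMAD2 was above SMAD5, with means of 231 in NPY1R high and 247 in NPY1R low against 208 and 217. Per length SMAD2 had 12.3 TPM, so the rank of SMAD5 depends on the transcript length used. The log2 changes of SMAD2 and SMAD3, of the TGF-beta branch, were -0.09 (SE 0.05) and -0.19 (SE 0.12). None of these 4 passed the test.

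SMAD1 and SMAD7 had non-overlapping groups without a call. SMAD1, a BMP receptor SMAD, had 32.6, 33.0, 31.8 and 28.3 CPM in NPY1R high and 24.4, 27.6, 27.2 and 26.8 CPM in NPY1R low, with a log2 change of 0.25 (SE 0.08; edgeR adjusted p = 0.0622). SMAD7, which blocks type I receptors, had 17.5, 14.8, 14.7 and 14.4 CPM in NPY1R high and 11.5, 13.1, 11.6 and 12.9 CPM in NPY1R low. Its log2 change was 0.32 (SE 0.10), not called (edgeR adjusted p = 0.0576). Of 20 alternatives, 9 called SMAD1 and 11 called SMAD7, all in the same direction.

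The ID genes encode helix-loop-helix proteins that bind and disable other factors of that class. ID1, at 31605289 to 31606510 on chromosome 20, had 83.0, 85.0, 23.1 and 19.4 CPM in NPY1R high replicates 1 to 4. In NPY1R low it had 38.4, 47.4, 7.60 and 6.21 CPM. Replicates 1 and 2 were far above replicates 3 and 4 in both groups, and within each of these pairs both high libraries lay above both low ones. The log2 change over all libraries was 1.08 (SE 0.70; edgeR adjusted p = 0.39).

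ID3 had the same division, with 48.9, 52.3, 11.8 and 10.6 CPM in NPY1R high and 22.9, 28.5, 3.89 and 3.57 CPM in NPY1R low. Its log2 change was 1.06 (SE 0.74), not called (edgeR adjusted p = 0.423). ID4 had 40.5, 51.5, 17.4 and 13.3 CPM in NPY1R high and 12, 15.8, 4.48 and 4.83 CPM in NPY1R low. Here only NPY1R high replicate 4 lay below an NPY1R low library (replicate 2), and the log2 change of 1.72 (SE 0.51) just missed the threshold (edgeR adjusted p = 0.052). Of 20 alternatives, 14 called ID4 higher. ID2, the most abundant ID gene per length (126 TPM), had none of this pattern, with 153, 159, 142 and 129.8 CPM in NPY1R high and 139, 159.6, 134 and 147 CPM in NPY1R low.

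**Figure D3:**
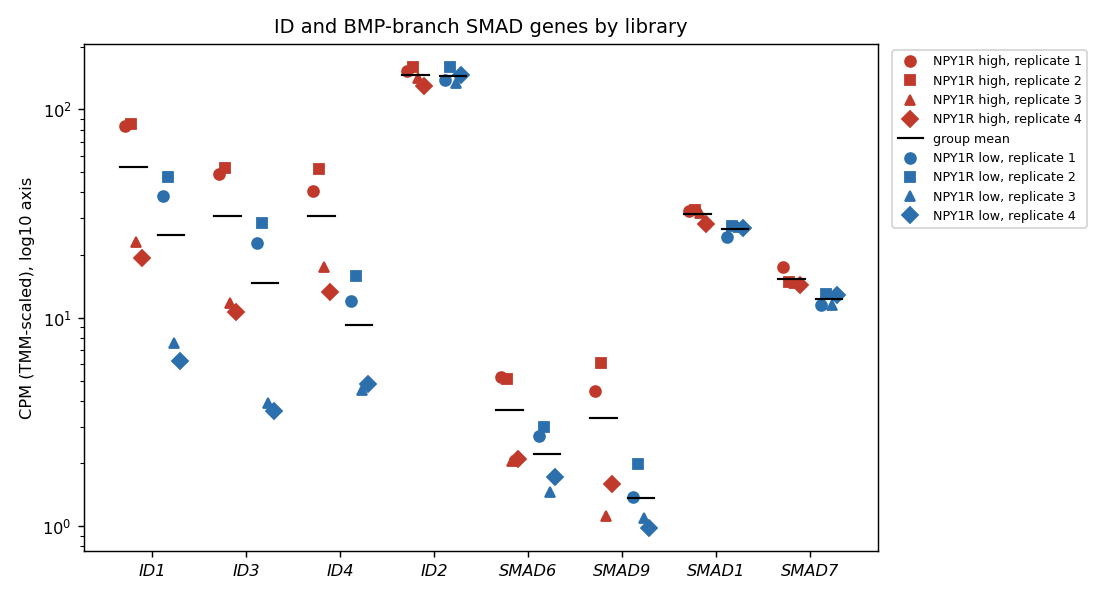
CPM of the 4 ID genes and of SMAD6, SMAD9, SMAD1 and SMAD7 in each library (log10 axis; colour is the group, symbol the replicate, line the group mean). ID1, ID3, ID4, SMAD6 and SMAD9 have replicates 1 and 2 above replicates 3 and 4 in both colours, while ID2, SMAD1 and SMAD7 stay within a narrow band.

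SMAD6, the inhibitory SMAD of the BMP branch, and SMAD9, its receptor SMAD that is itself a BMP target, shared the division at lower levels. SMAD6 had 5.22, 5.09, 2.06 and 2.09 CPM in NPY1R high and 2.72, 2.98, 1.46 and 1.73 CPM in NPY1R low, a log2 change of 0.70 (SE 0.37). SMAD9 had 4.43, 6.10, 1.12 and 1.6 CPM in NPY1R high and 1.38, 2.00, 1.1 and 0.982 CPM in NPY1R low, a log2 change of 1.28 (SE 0.50). Neither passed the test (edgeR adjusted p of 0.267 and 0.133). Within these pairs of replicates, the log2 difference of mean CPM between high and low for SMAD6 was 0.86 (replicates 1 and 2) and 0.38 (3 and 4), and for SMAD9 1.64 and 0.39. For ID1 these were 0.97 and 1.62, for ID3 0.98 and 1.59, and for ID4 1.73 and 1.72.

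The ratio of replicates 1 and 2 to replicates 3 and 4, given as a description because this division was known from earlier results of these libraries, was 3.95 in NPY1R high and 6.21 in NPY1R low for ID1. For ID3 it was 4.50 and 6.90, for ID4 2.99 and 2.98, for SMAD9 3.87 and 1.62, and for SMAD6 2.48 and 1.78. In the other 35 tested members it ranged from 0.563 to 1.76 in NPY1R high and from 0.666 to 1.43 in NPY1R low. Of all 14008 tested genes, 24 (0.171%) were at least 2-fold higher in replicates 1 and 2 in both groups, and ID1, ID3 and ID4 were among them. The labels give no batch, and whether culture, handling or library preparation moved with this division was not tested.

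**Figure D4:**
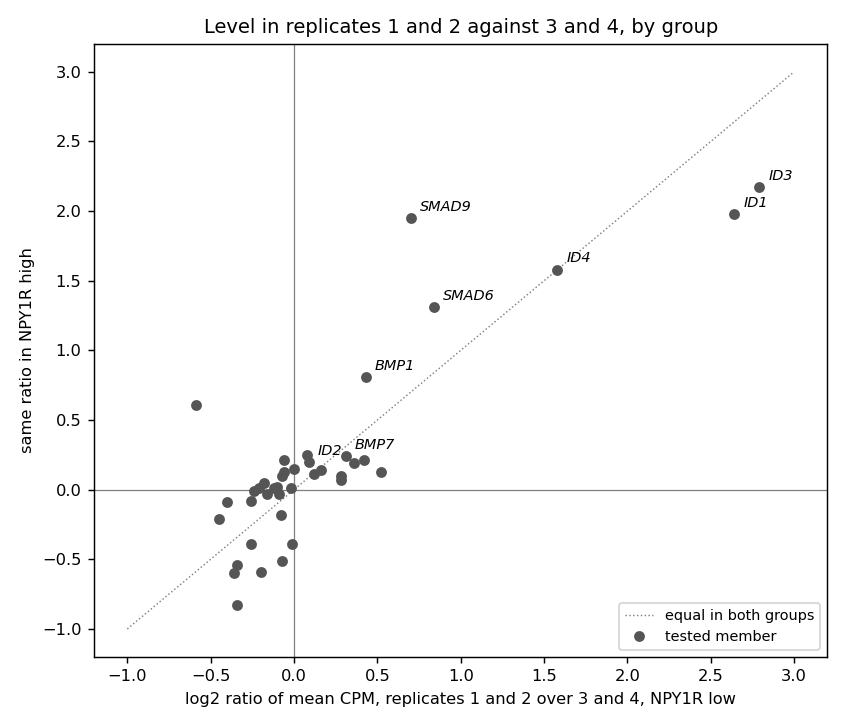
Log2 ratio of mean CPM in replicates 1 and 2 to that in replicates 3 and 4, in NPY1R low (x axis) and NPY1R high (y axis), for the 40 tested members; the dotted line marks equal ratios. ID3 (2.79, 2.17), ID1 (2.64, 1.98) and ID4 (1.58, 1.58) lie far to the upper right of the remaining members, with SMAD9 and SMAD6 between.

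When the model held a term that separates replicates 1 and 2 from the others, 12 of the 40 tested members (30.0%) were called, against 20.6% of all tested genes (8.6% higher and 12% lower). The 5 that fell were those called without the term, and the 7 that rose were ID1, ID3, ID4, SMAD1, SMAD6, SMAD7 and SMAD9. In the fit with this term the log2 change was 1.25 (SE 0.14) for ID1 (edgeR adjusted p = 0.000122), 1.22 (SE 0.13) for ID3 and 1.73 (SE 0.13) for ID4. For ID2 it was 0.01 (SE 0.06). Since the division was picked with these values known, these calls are not independent evidence. With the replicate number as a block, 5 members were higher and 5 lower, where 5.75% and 7.34% of all genes were. Same-numbered low and high libraries also stand next to each other in the running sample numbers of the titles. No label states that they shared a culture or a day.

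A further list held 79 other genes of the pathway, of which 52 were tested. By the same test 10 were higher and 2 lower in NPY1R high, 23.1% of those tested against 13.6% of all genes, and the median log2 change was 0.014. Among those with too few counts to test, the ligands NODAL, LEFTY1 and AMH had 52, 30 and 11 counts over the 8 libraries, and the antagonists SOST and CER1 had none. The list was written with other results of these libraries known.

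Among called genes with a mean of at least 1 CPM, the largest rises on that list were CTGF, THBS1, FSTL1, MSX2 and CRIM1. CTGF, a matrix protein gene induced by TGF-beta among other signals, had 2.06, 2.08, 3.51 and 2.75 CPM in NPY1R high and 0.470, 0.245, 0.458 and 0.903 CPM in NPY1R low, a log2 change of 2.32 (SE 0.35). THBS1, whose product thrombospondin 1 can release TGF-beta from its latent form, rose from 97.3 ± 6.10 to 314 ± 29.5 CPM (SD over 4 libraries each). The log2 change of THBS1 was 1.69 (SE 0.08). FSTL1, a secreted follistatin-like protein, rose from 24.4 ± 5.78 to 68.2 ± 11.2 CPM, and MSX2, a homeobox gene that BMPs induce, from 54.9 ± 1.45 to 101.8 ± 3.61 CPM. CRIM1, a membrane protein that binds BMPs, rose by a log2 of 0.63 (SE 0.06). At means under 1 CPM, ANKRD1 and BMPER had larger log2 changes of 2.96 and 2.37. FKBP1A, SKIL and TGIF2 were the others called higher, and FKBP1A kept its call in 11 of 20 alternatives.

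The 2 that fell were ITGB6 and USP9X. ITGB6 encodes a subunit of the integrin that activates latent TGF-beta on epithelial cells, and it had 14.2, 14.5, 13.3 and 13.1 CPM in NPY1R high and 28.5, 30.2, 26.9 and 30.6 CPM in NPY1R low. Its log2 change was -1.07 (SE 0.08; edgeR adjusted p = 2.11e-05). USP9X, a deubiquitinase that acts on SMAD4, fell by 0.29 on the log2 scale (SE 0.06), and this call ended without NPY1R high replicate 3 (adjusted p = 0.0774) or replicate 4 (edgeR adjusted p = 0.0736).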

How the data were processed

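RNA of 8 BT474 libraries was sequenced, 4 NPY1R high and 4 NPY1R low. The authors deposited a table of expected counts, one row per gene symbol, made from aligned reads and without scaling for depth. Per the submitters' processing notes, the tools were STAR 2.5.2 and RSEM 1.3.0 and the build was hg38, and the annotation is not given in the sources used here. Between 7.97% and 8.76% of values in a library were not whole, so counts were rounded. The series table was used, and the tables of single samples differed from it in 0 values.

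Genes were filtered with filterByExpr (minimum count 10), leaving 14008 of 26475. Groups were compared with edgeR's quasi-likelihood test after TMM scaling, with Benjamini-Hochberg adjustment over all tested genes and a threshold of 0.05 (R 4.3.3, edgeR 4.0.16, limma 3.58.1, DESeq2 1.42.0). The standard error is the log2 change divided by the square root of F. The procedure was tested on simulated counts. Length-scaled levels (TPM) used GENCODE 29, only to compare genes. Total counts ranged from 18025648 to 30609791, and the strand setting of the counting is not given in the sources used here. Any pair of libraries of a group differed by a chi-square of at least 6.00 per degree of freedom, so none was deposited more than once.

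Every tested member is named. Values per library are given for members past the threshold, for the most abundant of each role, and, chosen after their values were seen, for ID1, ID3, ID4, SMAD1, SMAD6 and SMAD9. Of other pathway genes, at most 5 per direction with a mean of at least 1 CPM are described. Members, roles, lists and alternatives were chosen with earlier results of these data known. Alternatives were other scalings, filters, tests, a GC offset, a replicate block, a term that separates replicates 1 and 2 from the others, a stricter threshold of 0.01, and leaving out each library. A few genes of these lists are not reported here.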

Additional observations from a re-analysis of the deposited data

Results flagged for a closer look

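In 1 NPY1R high library, replicate 1, SMAD7 reached 17.5 CPM, while its 3 fellow libraries had 14.4 to 14.8 CPM. Dixon's ratio, the distance to the next value divided by the spread from lowest to highest, was 0.864 and exceeded the 95% limit for 4 samples. ACVR2A had 17.1 CPM in NPY1R low replicate 1, below 18.7 to 19.0 CPM in the others, with a ratio of 0.841. These were 2 of 108 group values examined, where about 5.4 would exceed the limit by chance.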

How the results depend on the processing

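Over 20 alternatives (19 for ACVR1C, BMP6, NOG and TGFBR3, which the filter of 1 CPM removed), 21 of the 40 tested members kept their direction and their side of the threshold in each that was run, and BMP7, GDF15, TGFB3 and TGFBR1 were called lower in every one. The number of members called higher, 0 in the quasi-likelihood test with TMM, was 3 with median-of-ratios factors, library totals, upper-quartile factors, TMM with NPY1R high replicate 1 as reference, or a filter of 1 CPM in 4 libraries. It was 2 without a filter, 4 with DESeq2, 2 with the GC offset and 7 with the term for replicates 1 and 2 against 3 and 4. Over all genes, higher calls moved as well, from 810 in the quasi-likelihood test to 965 at 1 CPM and 909 without a filter. They were 1033 with DESeq2, 1039 with the GC offset and 1205 with that term. With each library left out, members called higher ranged from 0 to 2, and all genes called higher from 624 to 1068. The causes were not tested. The number of members called lower stayed at 4 or 5. Over all genes it ranged from 562 (adjusted p under 0.01) to 1780 (GC offset and replicate block).

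Same-numbered libraries of the groups did not meet the criterion for pairs, with correlations of their deviations of 0.339, 0.157, 0.0907 and 0.0178 across genes, and 2 of 8 libraries correlated best with their own number. With the replicate block 5 members were called higher, and 6 with the GC offset and replicate block. ID1, ID3, ID4, SMAD6 and SMAD9 were in both counts. Over all genes, the same fits called 805 and 1184 higher, so the second fit called more genes in general.

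Over all genes, 810 were called higher and 1094 lower. At an adjusted p under 0.01 these were 470 and 562. The lower calls were 1780 with the GC offset and replicate block and 1681 with the term for replicates 1 and 2 against 3 and 4, and ranged from 625 (without NPY1R high replicate 4) to 1064 with each library left out; they were 678 without NPY1R low replicate 1 and 710 without NPY1R high replicate 3. Of the other pathway genes, 2 were lower, against 5 with the GC offset (with or without the replicate block), 7 with the term and 1 at an adjusted p under 0.01, and 1 to 3 with each library left out.

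The sign of the log2 change turned only for members near 0. For BMPR1A it became 0.004 with DESeq2-type size factors, 0.019 without a filter and when scaled by totals, 0.032 with upper-quartile factors, 0.009 with the other TMM reference, 0.021 at 1 CPM and 0.005 with DESeq2. For ACVR1C it became 0.010, 0.026 and 0.003 with library totals, upper-quartile factors and the other TMM reference and 0.012 without a filter, and for ACVR1 -0.001 with limma-voom. With each library left out, the range was -0.047 to 0.050 for BMPR1A, -0.358 to 0.118 for ACVR1C, -0.021 to 0.105 for ACVR1, -0.031 to 0.175 for BMP4, -0.123 to 0.320 for BMP6, -0.300 to 0.028 for BMP8A, -0.110 to 0.189 for BMP8B, -0.173 to 0.034 for FSTL3, -0.038 to 0.105 for GDF11, -0.032 to 0.103 for ID2 and -0.092 to 0.017 for SMAD5. Counts were low for BMP6 (103.5 over 8 libraries), TGFBR3 (119), NOG (183), GDF15 (191) and ACVR1C (196).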

Other observations

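ATOH8, a helix-loop-helix gene that BMPs induce, was picked after its values were seen. It had 128, 144, 16 and 10 counts in NPY1R high replicates 1 to 4 and 84, 68, 21 and 20 counts in NPY1R low. As for ID1 and ID3, replicates 1 and 2 were above replicates 3 and 4 in both groups, by 8.63-fold in NPY1R high and 2.98-fold in NPY1R low. Unlike ID1 and ID3, the log2 difference between high and low was 0.91 in replicates 1 and 2 and -0.63 in replicates 3 and 4, and ATOH8 was not called (adjusted p = 0.638, edgeR's quasi-likelihood test; log2 change 0.65, SE 0.70). Among the 52 tested genes of the further pathway list it was the only one with at least a 2-fold difference of this kind in both groups, where 0.171% of all tested genes had it.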
